A study of Mus musculus with 7 samples.

Results

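Triglyceride is built in the liver by 4 enzyme steps, and 10 genes that encode the enzymes of these steps were followed from the first step to the last in livers with and without TET1. The genes were chosen by symbol, as known isoenzymes of each step: Gpam and Gpat4 for the first, Agpat1, Agpat2 and Agpat3 for the next, Lpin1, Lpin2 and Lpin3 for the third, and Dgat1 and Dgat2 for the last. They are 10 of the 51426 genes listed in the count tables, and all 10 were among the 14754 genes with enough counts to be tested. The comparison was made in bulk liver, where fewer cells of a type and less RNA per cell cannot be told apart.

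The study asked how the loss of TET1 affects fatty liver in mice fed a high-fat diet (HFD). The mRNA came from 3 WT and 4 TET1 KO male mice, all fed the HFD for 16 weeks from 8 weeks of age, so that diet, sex and age were shared and no chow-fed liver was compared here. TET1 is an enzyme that oxidises the methyl group of methylated cytosine in DNA. By the study's methods the KO mice carried a deleted Tet1 allele of the line B6;129S4-Tet1tm1.1Jae/J in every tissue, while the labels give C57BL/6J as the strain of both groups. The deletion was therefore not limited to hepatocytes, and the values do not tell an effect within the liver from an effect of another tissue on it. Each library is labelled as a replicate of its own, and the sources used here do not state which litter, cage or day each mouse came from, so the p-values measure the spread between these livers. The protocol names poly(A) selection with removal of ribosomal RNA as its alternative, without saying which a library received.

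In the glycerol phosphate (Kennedy) pathway, a fatty acid is first attached to glycerol 3-phosphate by a glycerol-3-phosphate acyltransferase (GPAT), which gives lysophosphatidic acid. An acylglycerolphosphate acyltransferase (AGPAT) adds the next fatty acid to give phosphatidic acid, a phosphatidic acid phosphatase (PAP, the lipins) removes the phosphate to give diacylglycerol, and a diacylglycerol acyltransferase (DGAT) adds the last fatty acid. Phosphatidic acid and diacylglycerol also feed the synthesis of phospholipids, and the triglyceride made is stored in lipid droplets or exported in very low density lipoprotein.

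Library sizes lay between 15005277 and 22746138 counts, and values are given below as CPM, the count scaled to library size, after TMM scaling. A gene was called when its adjusted p was under 0.05 in edgeR's quasi-likelihood test, adjusted over all tested genes by the Benjamini-Hochberg method. For single genes an exact two-sided permutation test over the 35 splits of the 7 mice was added, which cannot give a p under 0.0286. Tet1 itself was counted 1, 4 and 1 times in WT and 2, 1, 4 and 1 times in TET1 KO livers, near the floor in both, so that its mRNA does not tell the genotypes apart at this depth. The first principal component of log2 CPM, with 48.7% of the variance, had WT replicate 2 at its low end (-56.9) and TET1 KO replicate 1 at its high end (57.1). The same livers had the lowest and the highest share of mitochondrial counts, 7.25% and 14.4%. Alb, the defining hepatocyte gene, lay between 42646 and 63896 CPM in every liver. The 5 adipocyte markers summed to between 2.10 and 3.25 CPM in WT and between 0.278 and 19.4 CPM in TET1 KO livers, the highest value being that of TET1 KO replicate 2, where Adipoq, Plin1 and Cfd stood at 4.23, 4.93 and 8.59 CPM. Adipoq had 0 counts in 5 of the 6 other livers. Summed markers of bile duct cells lay between 29.7 and 37.8 CPM in WT and between 46.1 and 68.0 CPM in TET1 KO livers. Most of that sum was Spp1, at 19.8 to 29.1 CPM in WT and 30.7 to 43.7 CPM in TET1 KO livers. Krt19 and Krt7 overlapped between the groups. TET1 KO replicate 4 was the highest liver for Krt19, Krt7 and Epcam, at 6.68, 2.69 and 4.87 CPM. Of the 5 markers 0 were called by edgeR, 4 had an unadjusted p under 0.05 and 3 were called by DESeq2. The part of these markers in the results was not tested.

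Of the 10 enzymes, only Gpam changed under this test. Gpam was called lower in TET1 KO livers, which makes 1 of 10 enzymes beside 1.15% of all tested genes called lower. That background was 169 genes as reported and moved with the livers used, to 22 genes without WT replicate 2 and 48 without TET1 KO replicate 3, and it was 707 genes with DESeq2. No enzyme was called higher by edgeR, beside 0.874% of all tested genes, although Agpat1 was called higher by DESeq2. DESeq2 called 1 enzyme lower and 1 higher, beside 4.79% and 4.70% of all tested genes. An unadjusted edgeR p under 0.05 was found for 2 of the 10, Gpam and Agpat1, beside 26.3% of all tested genes, a share to which the counts of unadjusted p-values given for other lists also compare. The groups did not overlap for 4 of the 10 enzymes, namely Gpam, Agpat1, Agpat2 and Dgat1, beside 22.5% of all tested genes. The median log2 fold change of the 10 was -0.08, against 0.01 over all tested genes, and 6 had a negative and 4 a positive sign. These counts describe the pathway, and no test was made over the 10 enzymes as a group.

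**Figure D1:**
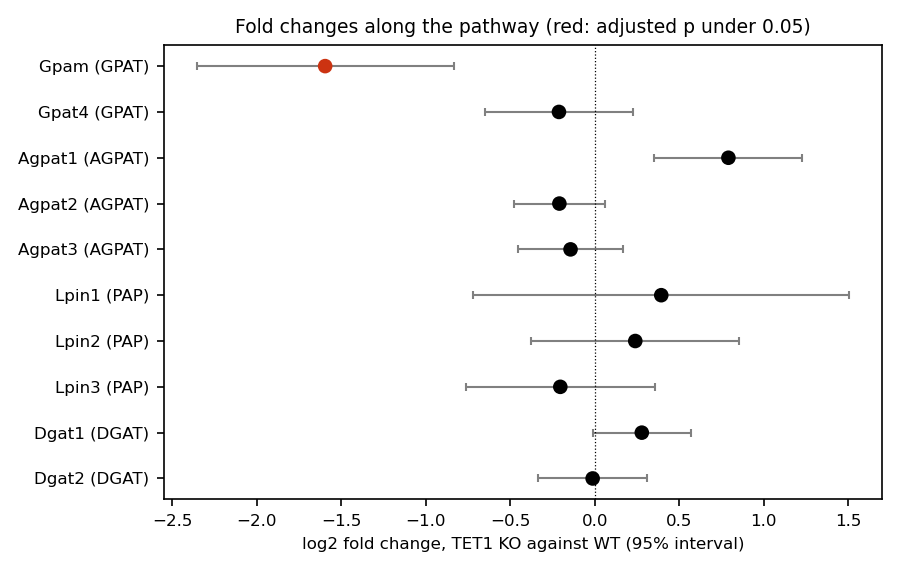
The log2 fold change of each enzyme gene in TET1 KO against WT livers (x axis) with its 95% interval from edgeR (horizontal bars), ordered along the pathway from GPAT to DGAT. Gpam, in red, at -1.60 is the only enzyme with an adjusted p under 0.05, Agpat1 at 0.79 is the only other one whose interval leaves out 0, and Lpin1 has the widest interval.

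The promoters of the 2 genes that stood out are shown because cytosines next to guanine (CpG) are where DNA carries the methyl groups that TET1 acts on. No methylation was measured in these files, so the sequences are context for the expression values and not a result on them. RefSeq promoter windows on GRCm38.p6, from 250 bases before to 50 bases after a start site, were found for 7 of the 10 enzymes and gave 12 windows. Gpat4, Dgat1 and Dgat2 had no window. The stretches below lie before the start sites, are written 5′ to 3′ on the strand of the gene with each CpG in capitals, and leave out bases shared with annotated protein-coding transcripts. Gpam lies on the minus strand, its inner start within the RefSeq span of the gene (chr19:55067635-55127319), and its stretches are chr19:55099478-55099727 and chr19:55127335-55127488. Agpat1 lies on the plus strand, with both starts within its span (chr17:34604195-34613449), and its stretches are chr17:34605611-34605860 and chr17:34608847-34609013.
Gpam, inner start: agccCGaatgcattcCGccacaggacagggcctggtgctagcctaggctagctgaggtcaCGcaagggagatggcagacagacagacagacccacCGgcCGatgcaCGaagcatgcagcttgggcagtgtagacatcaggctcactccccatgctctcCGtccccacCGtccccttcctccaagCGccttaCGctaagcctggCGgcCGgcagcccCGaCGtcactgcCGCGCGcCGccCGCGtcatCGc
Gpam, outer start: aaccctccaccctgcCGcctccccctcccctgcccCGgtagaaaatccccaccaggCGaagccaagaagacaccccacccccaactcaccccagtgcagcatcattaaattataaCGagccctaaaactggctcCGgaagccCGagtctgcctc
Agpat1, upstream start: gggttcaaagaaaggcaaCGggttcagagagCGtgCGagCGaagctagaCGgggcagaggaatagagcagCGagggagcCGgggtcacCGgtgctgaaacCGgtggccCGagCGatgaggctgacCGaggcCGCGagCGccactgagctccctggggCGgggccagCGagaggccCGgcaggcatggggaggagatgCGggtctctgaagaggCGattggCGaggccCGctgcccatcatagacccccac
Agpat1, downstream start: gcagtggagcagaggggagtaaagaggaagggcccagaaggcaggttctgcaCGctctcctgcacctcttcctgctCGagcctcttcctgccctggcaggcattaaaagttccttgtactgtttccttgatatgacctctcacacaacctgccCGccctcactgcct

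The starts of each gene differed in their CpG content. The window at the inner start of Gpam held 30 CpG, at percentile 88.3 of the 32851 RefSeq promoter windows of the same length, and the window at the outer start held 9. The windows of Agpat1 held 24 and 4 CpG. Over all windows the median was 7 CpG, with quartiles of 3 and 20. Among the other enzymes with a window the count ran from 2 in the window of Lpin1 to 54 in a window of Lpin2, at percentile 99.7 of all windows. Gpam and Agpat1 therefore did not share a CpG content that sets them apart from these enzymes, and Gpat4, Dgat1 and Dgat2 could not be compared. Count tables per gene do not say which start was used.

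Motifs of factors known in lipid synthesis and in the clock were searched by exact letters on both strands of the 12 windows. The E-box CACGTG, read by clock and carbohydrate-response factors, was found in a window of Lpin2 and a window of Lpin3, and 7.15% of all windows hold it. The GC box GGGCGG was found in 7 of the 12 windows, against 35.7% of all windows, with copies in Gpam and in both Agpat1 windows. CCAAT was found in the outer Gpam window, the upstream Agpat1 window and a window of Lpin2, against 37.4% of all windows. The sterol element TCACNCCAC, the D-box TTATGNAA and a direct repeat of AGGTCA spaced by 1 base were in none of the 12 windows, against 1.24%, 3.38% and 0.0396% of all windows, and a looser form of that repeat with any base at a position of its upstream copy was also in none, against 0.0944%. No match of one motif overlapped that of another, and of the GC boxes only a pair in Agpat2 shared a base. These are matches of letters, and a missing match says only that those letters are not in the window.

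At the GPAT step, Gpam mRNA was lower in every TET1 KO liver than in every WT liver, while that of Gpat4, an enzyme of the endoplasmic reticulum, overlapped between the groups. Gpat3, another enzyme of the endoplasmic reticulum that is not among the 10, also fell and is given below with the other acyltransferases. Gpam (ENSMUSG00000024978) encodes GPAT1, a GPAT of the outer mitochondrial membrane, which in liver is induced by feeding and insulin. Gpam stood at 23.8, 74.7 and 25.8 CPM in the WT livers and at 11.7, 14.9, 15.9 and 12.4 CPM in the TET1 KO livers. The WT livers were all higher, and WT replicate 2 stood far above the other two. The means were 41.4 ± 28.8 CPM (SD, n = 3) and 13.7 ± 1.96 CPM (SD, n = 4), so that the WT mean was 3.02 times the KO mean. Fitted on the log2 scale, the fold change of Gpam was -1.60 (standard error 0.34, 95% interval -2.36 to -0.84, edgeR adjusted p = 0.0440). The exact permutation test gave p = 0.0286, the smallest it can give, and by DESeq2 the value was -1.61 (adjusted p = 0.000257).

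The size of the Gpam change rested on WT replicate 2. Without it the log2 fold change was -0.86 and the edgeR adjusted p 0.0897, and the call was also lost without TET1 KO replicate 1 (0.0819), replicate 2 (0.0942) or replicate 3 (0.0996) and with robust dispersions (0.0727). The sign was negative in all 15 alternatives, in which the log2 fold change ran from -1.89 to -0.86 and the adjusted p from 0.000257 to 0.0996. Without TET1 KO replicate 2, the liver with adipocyte markers, the log2 fold change was -1.65. The RefSeq span of Gpam shares 18371 bases with Gm31356, a long non-coding RNA gene, and whether counting separated the strands is not given in the sources used here.

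**Figure D2:**
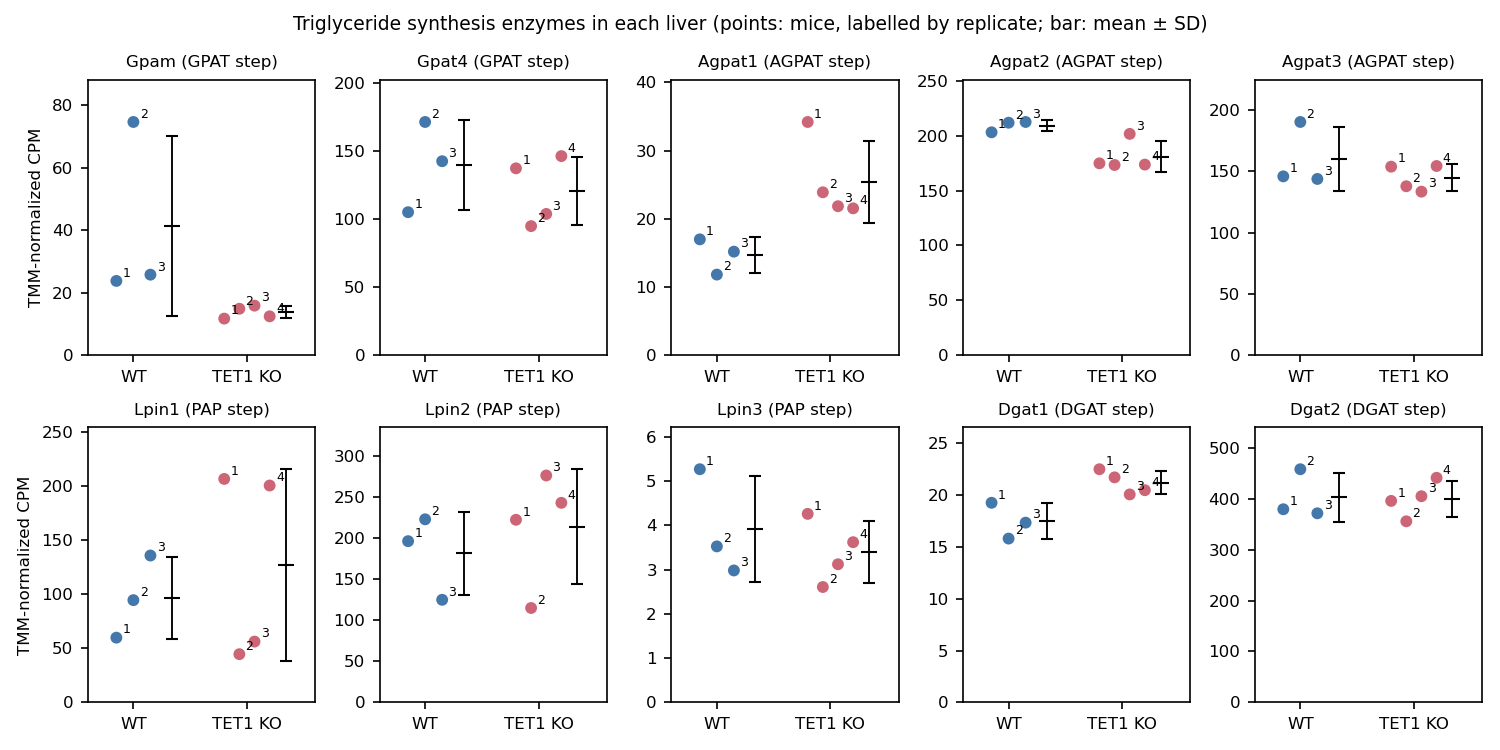
TMM-normalized CPM (y axis, starting at 0) of each enzyme gene in the 3 WT (blue) and 4 TET1 KO (red) livers, with 1 point for each mouse labelled by its replicate number and the mean ± SD drawn beside it. WT replicate 2 stands above the other livers for Gpam, at 74.7 CPM, and TET1 KO replicates 1 and 4 stand above the other livers for Lpin1.

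**Figure D3:**
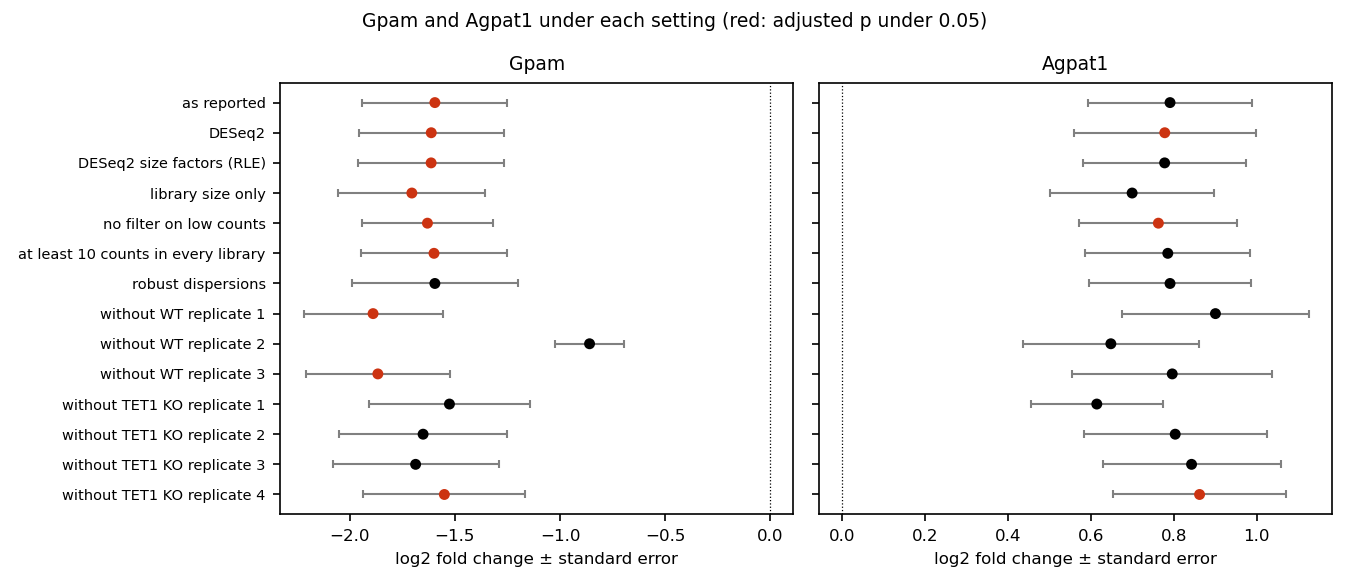
The log2 fold change ± standard error (x axis) of Gpam and Agpat1 as reported and under each other setting apart from the replicate block, or with each mouse left out (y axis), with values of adjusted p under 0.05 in red. Every value keeps its sign, Gpam moves to -0.86 without WT replicate 2, and Agpat1 lies between 0.61 and 0.90.

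Gpat4 (ENSMUSG00000031545) encodes a GPAT of the endoplasmic reticulum and had more mRNA per kb of exon than Gpam in every liver. It stood at 105, 171 and 143 CPM in the WT livers and at 137, 94.9, 104 and 146 CPM in the TET1 KO livers. The groups overlapped, with the highest liver in WT and the lowest in TET1 KO. Its log2 fold change was -0.21 (standard error 0.20, 95% interval -0.65 to 0.23, edgeR adjusted p = 0.512) and its interval lies above the value fitted for Gpam.

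At the AGPAT step, of the 3 isoenzymes taken here, the one with the least mRNA per kb of exon was higher and the one with the most was lower in every TET1 KO liver than in every WT liver, and neither difference was called. Agpat1 (ENSMUSG00000034254) encodes an AGPAT of the endoplasmic reticulum found in most tissues. Agpat1 stood at 17.0, 11.8 and 15.2 CPM in the WT livers and at 34.2, 23.9, 21.8 and 21.5 CPM in the TET1 KO livers. All TET1 KO livers were above all WT livers, with TET1 KO replicate 1 the highest and WT replicate 2 the lowest of all. These are the livers at the ends of the first principal component and of the mitochondrial share, and they also held the lowest and the highest Gpam value. The part of these differences between libraries in the Agpat1 and Gpam values was not tested. Without TET1 KO replicate 1 the log2 fold change of Agpat1 was 0.61 (edgeR adjusted p = 0.0875) and without WT replicate 2 it was 0.65 (0.275). The means were 14.7 ± 2.62 CPM (SD, n = 3) and 25.4 ± 5.98 CPM (SD, n = 4), a ratio of KO to WT of 1.73. The log2 fold change was 0.79 (standard error 0.20, 95% interval 0.35 to 1.23), with adjusted p = 0.0629 by edgeR and p = 0.0286 by the exact permutation test.

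Agpat1 passed the threshold with DESeq2 (adjusted p = 0.0103), without the filter on low counts (0.0485) and without TET1 KO replicate 4 (0.0437). Over all alternatives its adjusted p ran from 0.0103 to 0.275 and its log2 fold change from 0.61 to 0.90. The RefSeq span of Agpat1 shares 101 bases with the protein-coding gene Egfl8, so that a small part of its reads could belong to a neighbour.

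Agpat2 (ENSMUSG00000026922) encodes the AGPAT whose loss causes congenital lipodystrophy, and it is the main AGPAT gene of liver and fat. It stood at 203, 212 and 213 CPM in the WT livers and at 175, 173, 202 and 174 CPM in the TET1 KO livers. The WT livers lay close together and above all TET1 KO livers, of which replicate 3 nearly reached them. The log2 fold change was -0.21 (standard error 0.12, 95% interval -0.48 to 0.06, edgeR adjusted p = 0.290), and the exact permutation test gave p = 0.0571. Agpat3 (ENSMUSG00000001211), an AGPAT of the endoplasmic reticulum and Golgi, ranged from 144 to 190 CPM in WT and from 133 to 154 CPM in TET1 KO livers, with a fitted log2 fold change of -0.14 (95% interval -0.45 to 0.17, edgeR adjusted p = 0.531). Agpat3 is the enzyme gene on the chromosome of the targeted locus, 15.4 Mb from Tet1 on chromosome 10.

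At the PAP step no lipin gene was called, and the livers of each genotype spread widely for Lpin1 and Lpin2. Lpin1 (ENSMUSG00000020593) encodes lipin 1, a PAP that also acts as a coactivator of fatty acid oxidation genes and is induced by fasting and glucocorticoids. Lpin1 stood at 59.8, 94.5 and 136 CPM in the WT livers and at 207, 44.6, 56.2 and 200 CPM in the TET1 KO livers. TET1 KO replicates 1 and 4 were the highest of all livers, while replicates 2 and 3 lay below every WT liver. The means were 96.7 ± 38.0 CPM (SD, n = 3) and 127 ± 88.6 CPM (SD, n = 4), and the fitted log2 fold change was 0.39 (standard error 0.50, 95% interval -0.72 to 1.51, edgeR adjusted p = 0.640). This is the widest interval among the 10 enzymes, and a difference between the genotypes of either sign lies within it. The RefSeq span of Lpin1 shares 461 bases with Ntsr2.

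Lpin2 (ENSMUSG00000024052), the lipin known as abundant in liver, stood at 196, 223 and 125 CPM in the WT livers and at 222, 115, 276 and 243 CPM in the TET1 KO livers. The lowest liver was TET1 KO replicate 2 and the highest TET1 KO replicate 3, so the KO range took in the whole WT range. For Lpin2 the log2 fold change was 0.24 (standard error 0.28, 95% interval -0.38 to 0.86, edgeR adjusted p = 0.605). Lpin3 (ENSMUSG00000027412), a lipin found mainly in the gut, ranged from 2.98 to 5.27 CPM in WT and from 2.61 to 4.26 CPM in TET1 KO livers, with a fitted log2 fold change of -0.20 (95% interval -0.76 to 0.36, edgeR adjusted p = 0.630), from 37 to 107 counts a library.

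The order of the livers for Lpin1 was set beside genes of the fasting response and the clock, since Lpin1 is known to follow both. Pck1, the gluconeogenic enzyme that makes phosphoenolpyruvate, stood at 1057, 1763 and 1209 CPM in the WT livers and at 1718, 855, 1303 and 1923 CPM in the TET1 KO livers. G6pc, the glucose-6-phosphatase that releases glucose, stood at 82.7, 245 and 193 CPM and at 259, 72.6, 173 and 245 CPM, respectively. Per1, a clock gene that responds to glucocorticoids, stood at 18.4, 33.9 and 36.9 CPM and at 41.5, 19.2, 29.9 and 42.5 CPM. In all 3 genes TET1 KO replicates 1 and 4 were the highest of the TET1 KO livers and replicate 2 the lowest, as for Lpin1, and WT replicate 1 was the lowest WT liver. Other genes of the same lists ordered the TET1 KO livers differently. Pdk4, a fasting-induced kinase that holds back glucose oxidation, stood at 0.501, 6.83, 1.53 and 1.62 CPM and Nr1d1, a clock repressor, at 61.6, 146, 116 and 95.1 CPM in TET1 KO replicates 1 to 4, with replicate 1 the lowest and replicate 2 the highest in both. Replicates 1 and 4 were the highest and replicate 2 the lowest TET1 KO liver in 8 of 13 fed and fasted genes, in 2 of 14 clock genes and in 7.46% of all tested genes. Replicate 1 was the lowest TET1 KO liver in 4 of the 13, in 4 of the 14 and in 32.5% of all tested genes. Neither Pck1, G6pc nor Per1 differed between genotypes beyond the spread, since the log2 fold change was 0.11 for Pck1 (edgeR adjusted p = 0.829), 0.11 for G6pc (0.888) and 0.16 for Per1 (0.739). G6pc, Per1 and Pdk4 and the orders counted were chosen after their values were seen. By the study's methods the mice were not fasted before serum was taken, when the diet ended. The labels do not give the feeding state or hour at which each liver was taken, so the part of either in the Lpin1 values was not tested.

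**Figure D4:**
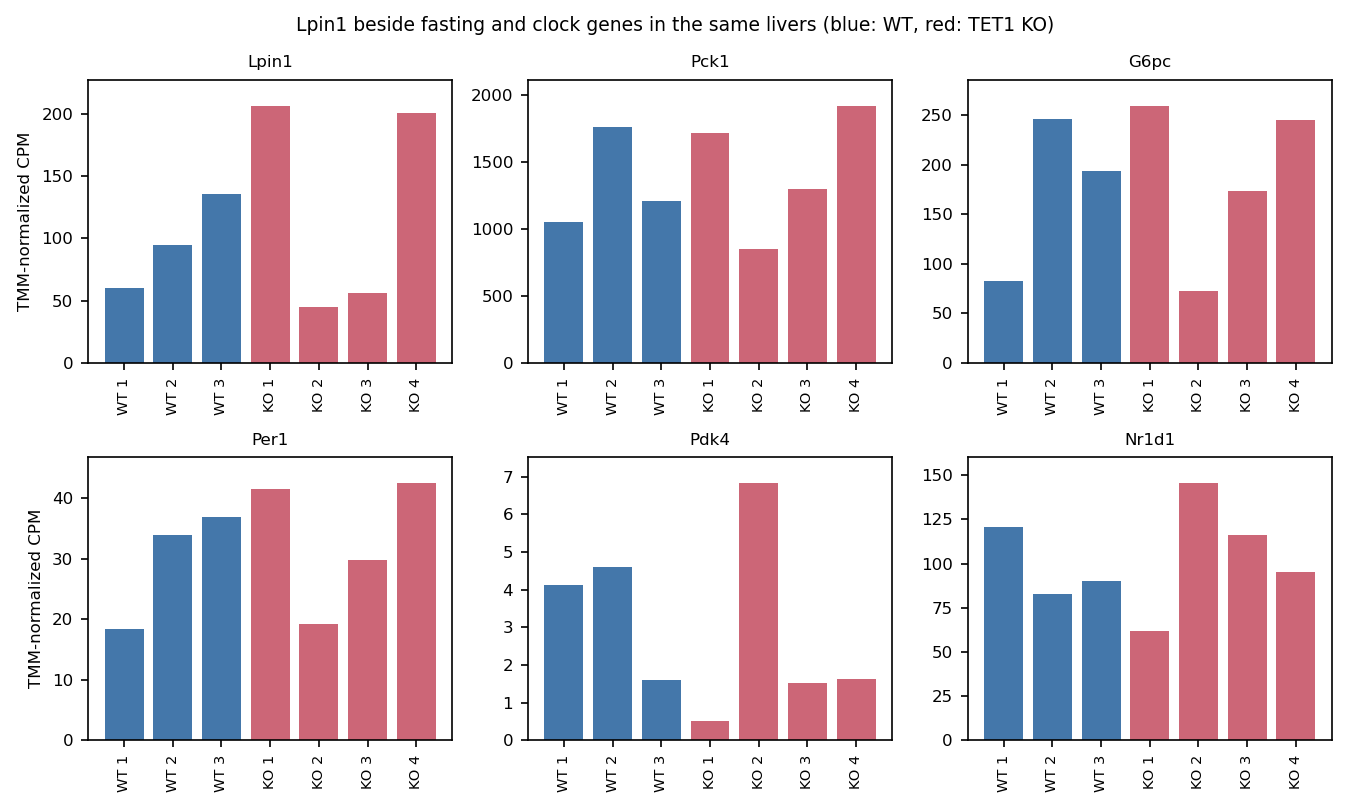
TMM-normalized CPM (y axis, starting at 0) of Lpin1 and of the fasting and clock genes Pck1, G6pc, Per1, Pdk4 and Nr1d1 in each WT (blue) and TET1 KO (red) liver, with 1 bar for each mouse. TET1 KO replicates 1 and 4 have the highest and replicate 2 the lowest bar of the TET1 KO livers in Lpin1, Pck1, G6pc and Per1, while in Pdk4 and Nr1d1 replicate 1 has the lowest and replicate 2 the highest, and the genotypes overlap throughout.

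At the DGAT step, the groups overlapped for Dgat2, while Dgat1 mRNA was slightly higher in every TET1 KO liver, a difference that was not called. Dgat1 (ENSMUSG00000022555) encodes a DGAT known for using fatty acids taken up from outside the cell, strong in the intestine. Dgat1 stood at 19.2, 15.8 and 17.3 CPM in the WT livers and at 22.5, 21.7, 20.05 and 20.5 CPM in the TET1 KO livers. The groups were next to each other without overlap, and with scaling by library size alone they overlapped. The means were 17.5 ± 1.73 CPM (SD, n = 3) and 21.2 ± 1.12 CPM (SD, n = 4), and the fitted log2 fold change was 0.28 (standard error 0.13, 95% interval -0.01 to 0.57, edgeR adjusted p = 0.205) and an exact permutation p of 0.0286.

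Dgat2 (ENSMUSG00000030747) encodes the DGAT tied to newly made fatty acids, and it is the main DGAT gene of liver. It stood at 379, 458 and 371 CPM in the WT livers and at 396, 356, 405 and 441 CPM in the TET1 KO livers. The highest liver was WT replicate 2 and the lowest TET1 KO replicate 2, and between them the other WT livers lay below the other TET1 KO livers. For Dgat2 the log2 fold change was -0.01 (standard error 0.15, 95% interval -0.34 to 0.31, edgeR adjusted p = 0.963) and the interval lies above the value fitted for Gpam.

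Levels of the isoenzymes were compared per kb of exon, with lengths from GENCODE M1. In WT livers the highest level was that of Dgat2, at 179 ± 21.2 CPM per kb (SD, n = 3), followed by Agpat2 at 98.2 ± 2.47, Gpat4 at 35.4 ± 8.43 and Agpat3 at 21.1 ± 3.47 CPM per kb. Lpin1 at 16.9 ± 6.64 and Lpin2 at 14.8 ± 4.14 CPM per kb overlapped among the WT livers. Lpin1 also overlapped with Agpat3, whereas Lpin2 was below Agpat3 in every WT liver. Overlap was likewise found among Gpam at 6.52 ± 4.54, Dgat1 at 5.72 ± 0.566 and Agpat1 at 4.88 ± 0.874 CPM per kb. Lpin3 was the lowest, at 1.06 ± 0.323 CPM per kb. In TET1 KO livers Gpam stood at 2.16 ± 0.309 CPM per kb (SD, n = 4), below Dgat1 at 6.93 ± 0.366 and Agpat1 at 8.45 ± 1.99 CPM per kb, with Lpin3 alone lower at 0.921 ± 0.191 CPM per kb. The WT mean of Gpam rested on WT replicate 2, at 11.8 CPM per kb, since WT replicates 1 and 3, at 3.75 and 4.06 CPM per kb, already lay below Dgat1 and Agpat1 and above Lpin3 in the same livers.

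Among the 10 enzymes, each step was led by an isoenzyme other than Gpam or Agpat1. The shares and sums of a step cover these 10 alone, so that Gpat3 and the further acyltransferases of the GPAT and AGPAT steps are left out. Gpam held 12.3, 21.3 and 10.1% of the summed level of Gpam and Gpat4 per kb in the WT livers and 5.03, 8.87, 8.67 and 5.01% in the TET1 KO livers. This sum was 42.0 ± 12.5 CPM per kb in WT and 32.7 ± 6.09 CPM per kb in TET1 KO livers, and the groups overlapped. Agpat1 held between 3.06 and 4.70% of the summed level of Agpat1, Agpat2 and Agpat3 in WT and between 6.09 and 10.01% in TET1 KO livers, while Agpat2 held between 77.4 and 80.6% and between 72.1 and 79.2%. That sum was 124 ± 4.13 CPM per kb in WT and 113 ± 5.42 CPM per kb in TET1 KO livers, without overlap. Lpin1 held between 37.4 and 68.3% of the PAP level in WT and between 29.5 and 65.1% in TET1 KO livers, so that either Lpin1 or Lpin2 led the step depending on the liver. The summed PAP level stood at 55.4, 17.9, 33.2 and 55.9 CPM per kb in the TET1 KO livers, against 32.8 ± 4.23 CPM per kb in WT. Dgat2 held over 95% of the DGAT level in every liver, and the summed DGAT level was 185 ± 20.8 and 184 ± 15.4 CPM per kb. These shares are of mRNA and say nothing of enzyme activity.

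**Figure D5:**
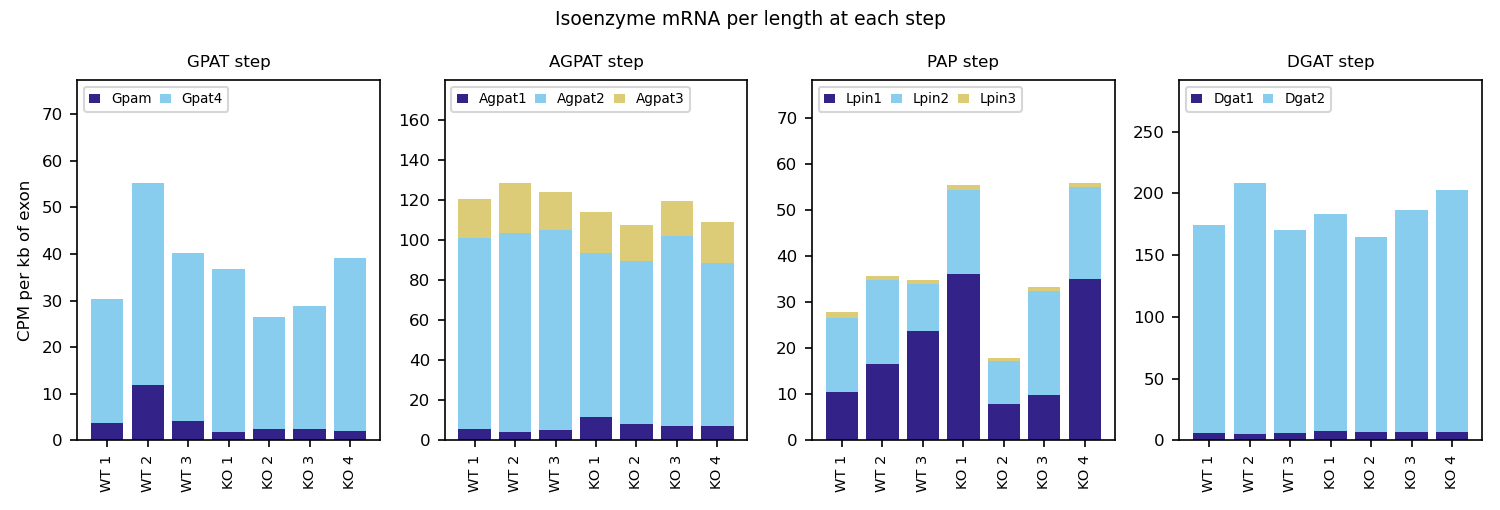
Stacked CPM per kb of exon (y axis, starting at 0) of those of the 10 enzymes that act at each step, without Gpat3, in the 3 WT and 4 TET1 KO (KO) livers. Gpat4, Agpat2 and Dgat2 fill most of their bars in every liver, Gpam is the small dark part of the GPAT bars, and the PAP bars vary most among TET1 KO livers, from 17.9 to 55.9 CPM per kb.

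The genes whose log2 CPM followed Gpam most closely over the 7 livers were Wwp1 and Nedd4 (ubiquitin ligases of the same family), Rfk (riboflavin kinase), Senp5 (a SUMO protease) and Dcun1d4. Their Pearson r with Gpam lay between 0.980 for Nedd4 and 0.988 for Wwp1, a description over 7 livers that also share library, depth and genotype. In each of them WT replicate 2 was the highest liver, at 221 CPM for Nedd4 against 106 to 152 CPM in the other livers. Their log2 fold changes were smaller than that of Gpam, from -0.80 for Senp5 to -0.35 for Wwp1, and none of the 5 was called (edgeR adjusted p from 0.0642 to 0.165).

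Around the pathway, 105 tested genes of 9 lists were examined, of which 6 were called lower and 5 higher by edgeR, beside 1.15% and 0.874% of all tested genes, and 14 and 10 by DESeq2, beside 4.79% and 4.70%. The lists were put together with earlier results of these data known, so their counts describe the neighbourhood of the enzymes and are not independent evidence of a direction.

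Among the other acyltransferases of the same steps, Gpat3 fell in TET1 KO livers. Gpat3 encodes a GPAT of the endoplasmic reticulum that is strong in fat. It stood at 11.2, 15.5 and 11.7 CPM in the WT livers and at 3.63, 4.65, 5.06 and 6.22 CPM in the TET1 KO livers, without overlap. This was a log2 fold change of -1.38 (standard error 0.21, 95% interval -1.84 to -0.93, edgeR adjusted p = 0.0112), and without WT replicate 2 it was -1.22 with an adjusted p of 0.0772, the largest over the alternatives. Of the 7 genes of this list 1 was called lower and 0 higher, with 2 at an unadjusted p under 0.05, all lower. Lpgat1, Lclat1 and Abhd5, its other strongly expressed members, had log2 fold changes of -0.62, -0.39 and -0.27 (edgeR adjusted p = 0.0803, 0.239 and 0.248). They were placed in this list by name, and whether they act at the GPAT or AGPAT step was not tested, so their values are not read as values of these steps.

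The genes that supply glycerol 3-phosphate and acyl-CoA to the first step were not called by edgeR, 0 of 9, while 3 had an unadjusted p under 0.05 and DESeq2 called the same number, all lower. Gpd1, which makes glycerol 3-phosphate from a glycolytic intermediate, stood at 317, 435 and 307 CPM in the WT livers and at 230, 228, 230 and 214 CPM in the TET1 KO livers. Gk, the glycerol kinase, stood at 104, 125 and 85.5 CPM in the WT livers and at 48.5, 73.5, 59.5 and 69.0 CPM in the TET1 KO livers. Neither gene overlapped between the groups, with a log2 fold change of -0.65 for Gpd1 (edgeR adjusted p = 0.0546) and of -0.74 for Gk (0.0547). Acsl5, an acyl-CoA synthetase, had a log2 fold change of -0.71 (edgeR adjusted p = 0.0789), and DESeq2 gave 0.00274, 0.00561 and 0.0184 for the 3 genes. Gk and Acsl5 were singled out after their values were seen. Acsl1, the acyl-CoA synthetase gene with the most mRNA, and Aqp9, the glycerol channel, had log2 fold changes of -0.09 and 0.10.

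In the monoacylglycerol route, which reaches diacylglycerol without the first steps, Mogat1 fell with a log2 fold change of -3.31 (edgeR adjusted p = 0.00272), 1 of 4 tested genes. The lipases Mgll and Pnpla2 had log2 fold changes of 0.09 and -0.04, and Lipe of 0.53 (edgeR adjusted p = 0.147). Of 21 tested genes for the other fates of phosphatidic acid and diacylglycerol, 0 were called by edgeR, 8 had an unadjusted p under 0.05, and DESeq2 called 2 lower and 1 higher. In this list Chpt1, the last enzyme of phosphatidylcholine synthesis, had a log2 fold change of -0.54 and Pcyt2, of phosphatidylethanolamine synthesis, of 0.61 (edgeR adjusted p = 0.0789 and 0.116), without overlap in either, and Pemt, which turns the latter lipid into the former, of 0.12. The proteins that act on lipins and on sites of droplet formation, 5 tested, had 0 calls by edgeR or DESeq2 and 0 unadjusted p under 0.05, and Bscl2, Ctdnep1 and Cnep1r1 had log2 fold changes of -0.07, 0.27 and -0.21.

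Among the transcriptional regulators of the pathway, 2 of 16 genes fell and none was called higher by edgeR, with 4 higher at an unadjusted p under 0.05 and 1 called higher by DESeq2. Insig2, which holds the sterol-regulated factors back in the endoplasmic reticulum, stood at 198, 225 and 131 CPM in the WT livers and at 52.4, 66.3, 96.2 and 80.8 CPM in the TET1 KO livers. For Insig2 the log2 fold change was -1.32 (standard error 0.22, edgeR adjusted p = 0.0196), with an adjusted p of 0.110 without WT replicate 2 and of 0.0568 without TET1 KO replicate 2. Pparg, a lipid-activated nuclear receptor of fat storage, had a log2 fold change of -1.63 (edgeR adjusted p = 0.0265), and its call was lost without WT replicate 1 (0.0549), WT replicate 2 (0.149) or TET1 KO replicate 3 (0.0786). Srebf1, the factor known to induce Gpam in response to insulin, stood at 344, 383 and 271 CPM in the WT livers and at 539, 319, 379 and 239 CPM in the TET1 KO livers. Those ranges overlapped, with a log2 fold change of 0.15 (95% interval -0.39 to 0.70, edgeR adjusted p = 0.716). Mlxipl, which encodes the carbohydrate-response factor ChREBP, had a log2 fold change of 0.90 (edgeR adjusted p = 0.0793, DESeq2 adjusted p = 0.0103), and Cebpa of 0.28.

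The genes of storage and export had a median log2 fold change of -0.40, against 0.01 over all tested genes, and 2 of 16, the droplet coat genes Plin2 and Plin4, were called lower. Plin2 averaged 473 ± 117 CPM in the 3 WT and 235 ± 49.6 CPM in the 4 TET1 KO livers (SD), and Plin4 38.4 ± 10.3 and 12.7 ± 2.44 CPM, with edgeR adjusted p-values of 0.0382 and 0.00602. Leaving out WT replicate 2 gave 0.191 for Plin2. The Plin2 call was also lost without WT replicate 1 or TET1 KO replicate 1, 2 or 3, at adjusted p-values of 0.0550, 0.0587, 0.0942 and 0.110. Apob, the structural protein of the exported particle, had a log2 fold change of -0.56 (edgeR adjusted p = 0.172), and Ces1d, a lipase that mobilises triglyceride for export, of 0.02.

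Genes that mark the fed and the fasted state and the clock were counted because Gpam and Lpin1 are known to follow both. Of 13 fed and fasted genes 1 was called higher and 0 lower by edgeR. At an unadjusted p under 0.05 there were 3 higher and 2 lower, and DESeq2 called 2 higher and 1 lower. The called gene was Irs2, an insulin receptor substrate induced in fasting, at 6.60, 6.18 and 4.64 CPM in the WT livers and 13.5, 8.31, 10.8 and 13.8 CPM in the TET1 KO livers (log2 fold change 1.00, standard error 0.22, edgeR adjusted p = 0.0436). Its call was lost when any single WT liver was left out, when TET1 KO replicate 1 or 3 was, and with library size alone, at adjusted p-values from 0.0548 to 0.176. Scd1, the desaturase of newly made fatty acids, stood at 3367, 7469 and 2442 CPM in the WT livers and at 2281, 668, 635 and 2616 CPM in the TET1 KO livers. As for Gpam, WT replicate 2 had the highest Scd1 value, but the groups overlapped (log2 fold change -1.51, edgeR adjusted p = 0.121).

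Of 14 tested clock genes 4 rose and none was called lower, with 6 at an unadjusted p under 0.05, all higher. Per3, a core clock repressor, Dbp and Tef, which bind D-boxes, and Bhlhe41, a repressor, had log2 fold changes of 1.12, 0.91, 0.79 and 1.58 (edgeR adjusted p = 0.00820, 0.0436, 0.0224 and 0.0436). Without WT replicate 2 none of the 4 was called, with adjusted p-values of 0.0604, 0.224, 0.104 and 0.206. The Dbp call was also lost with library size alone and without WT replicate 3 or TET1 KO replicate 1, 2 or 3, the Tef call without WT replicate 3 or TET1 KO replicate 2 or 3, and the Bhlhe41 call without WT replicate 1 or 3 or TET1 KO replicate 1, 2 or 3, at adjusted p-values from 0.0528 to 0.113. Nr1d1 had a log2 fold change of 0.10. The hour at which the livers were taken was not given in the labels, and the part of the clock genes or of the feeding state in the Gpam difference was not tested.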

How the data were processed

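Liver mRNA of 3 WT and 4 TET1 KO male mice was sequenced, and the sample labels gave each library's group and replicate number. The authors deposited raw read counts per Ensembl gene for each mouse, not normalized. The submitters' processing notes name Trimmomatic 0.36, GSNAP, featureCounts 1.5.3 and the build GRCm38, while the annotation release and the strand setting of the counting are not given in the sources used here.

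Genes were joined by identifier, since 26 symbols had been turned into dates in 1 table. Of 51431 entries, 5 repeats were left out, and 24623 of 51426 genes had at least 1 count. Counts were tested in R 4.3.3 with edgeR 4.0.16 (filterByExpr, TMM, glmQLFit and glmQLFTest, no covariates), and the genes kept held no less than 99.881% of any library's counts. Library sizes lay between 15005277 and 22746138 counts, and 1 CPM equals between 14.2 and 24.1 counts after scaling. Log2 CPM used a prior count of 2. The common biological coefficient of variation was 0.208, and libraries of the same genotype differed by a chi-square of at least 27.6 per degree of freedom, so none was taken as a repeat of another. Standard errors follow from the fitted fold change and its F statistic. The scripts were tested on simulated data.

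Levels per kb used exon lengths from GENCODE M1 (13469 of 14754 tested genes). Coordinates and promoter sequences are those of RefSeq on GRCm38.p6. No protein sequence was used.

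The alternatives were the replicate number as a block, leaving out each mouse, robust dispersions, DESeq2 1.42.0 or its size factors alone, scaling by library size, and a minimum of 10 counts per library or no minimum. The named genes are the 10 enzymes, the list genes with an adjusted p under 0.05, up to 3 genes of largest mean CPM in each list, the 5 genes most like Gpam and Tet1. A gene that this rule names is not reported here. Gk, Acsl5, Cidec, G6pc, Per1, Pdk4 and the marker genes with values were named after their values were seen. The 10 enzymes and all lists were chosen with earlier results of these data known. Of 109 genes in the 9 pathway lists, 105 were tested. Ldaf1 was not found under that symbol and was counted under its older symbol Tmem159. Of 43 markers in 8 cell type lists, 38 were tested. Figures were drawn with matplotlib 3.10.9.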

Additional observations from a re-analysis of the deposited data

Results flagged for a closer look

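Agpat2 was flagged because TET1 KO replicate 3 stood apart from the other 3 TET1 KO livers. Its gap to the nearest of them made up 0.946 of the range of the 4 livers, above the limit of 0.829 for 4 samples. That liver stood at 202 CPM against 173 to 175 CPM, and was the TET1 KO liver nearest to the WT livers, at 203 to 213 CPM. Chance flags about 1 in 20 groups, and 10 genes were examined in this way. TET1 KO replicate 1 came next, for Agpat1, with a gap of 0.814 of the range. Groups of 3, as in WT, were not examined.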

How the results depend on the processing

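The 10 enzymes had 1 gene called lower and 0 higher as reported. The count called higher was 1, Agpat1, with DESeq2, without the filter on low counts, with the replicate block on replicates 1 to 3 and without the block on the same 6 livers, and the count called lower was 0 with robust dispersions. Over the fits that left out 1 mouse, each count lay between 0 and 1. Of the pathway genes, reported at 6 lower and 5 higher, DESeq2 called 14 lower and 10 higher, library size alone 3 higher, no filter 10 lower, and the replicate block 12 lower and 11 higher, where the same 6 livers without the block, TET1 KO replicate 4 being left out of both, gave 9 and 7. Leaving out 1 mouse gave 2 to 9 lower and 0 to 7 higher, the lowest without WT replicate 2. A lone liver was never left in a group. Under the block Lpin1 reversed to -0.26, Pck1 to -0.073, Ces1d to -0.072 and G6pc to -0.10, and without the block on the same livers Lpin1 was 0.083 and Pck1, Ces1d and G6pc were -0.056, -0.13 and -0.048. With library size alone Nr1d1 was -0.0026 and Ces1d -0.077, and without the filter Ces1d was -0.015. With 1 mouse left out, the log2 fold change ran from -0.38 to 0.052 for Lpin3, -0.089 to 0.083 for Dgat2, -0.10 to 0.34 for Per1, -0.056 to 0.35 for Pck1, -0.24 to 0.34 for Ces1d, -0.24 to 0.44 for G6pc, -0.30 to 0.059 for Acsl1, -0.12 to 0.28 for Nr1d1, -0.16 to 0.069 for Pnpla2, -0.12 to 0.20 for Mgll and -0.087 to 0.31 for Srebf1. The cause was not tested. None of these genes was called. The deviations of same-numbered livers from their group means correlated at 0.21, -0.12 and -0.10. WT replicate 1 correlated best with TET1 KO replicate 1, and WT replicate 2 with TET1 KO replicate 4, at 0.31. Whether same-numbered livers share a litter, cage or day is not stated, and correlations over so few livers cannot decide it. Over all genes, reported at 169 lower and 129 higher, leaving out 1 mouse gave 22 to 464 lower and 16 to 427 higher calls and DESeq2 707 and 693. The block gave 696 higher and 687 lower calls against 427 and 464 without it on the same livers. At these depths Lpin3, with 37 to 107 counts a library, was the enzyme with the fewest counts, and Tet1 could not be compared.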

Other observations

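The droplet gene Cidec, named after its values were seen, stood at 13.9, 24.7 and 1.71 CPM in the WT livers and at 1.13, 3.66, 1.02 and 1.35 CPM in the TET1 KO livers. WT replicate 3 lay within the TET1 KO range, unlike the other WT livers, and the log2 fold change was -2.95 (standard error 0.69, edgeR adjusted p = 0.0550, from 0.00379 to 0.272 over the alternatives). The highest TET1 KO liver was replicate 2, which also held the adipocyte markers.

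Among the remaining markers, 0 of 7 Kupffer cell and macrophage genes and 0 of 4 tested T and NK cell genes had an unadjusted p under 0.05, and neither edgeR nor DESeq2 called any of them. In the stellate and fibroblast list 1 of 6 genes, the pericyte gene Rgs5, was called lower by edgeR (log2 fold change -0.67, adjusted p = 0.0460), 3 had an unadjusted p under 0.05 and DESeq2 called 3, all lower. The endothelial list had 0 of 5 genes called by edgeR and 1 called lower by DESeq2. The B cell list had 0 of 4 called by either and 1 at an unadjusted p under 0.05. Of the 6 hepatocyte genes 0 were called by edgeR, 1 had an unadjusted p under 0.05 and DESeq2 called 2 higher.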
